A study of Mus musculus with 12 samples.

Results

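The genes described here build or carry heparan sulfate and related proteoglycans in mouse embryonic stem cells exposed to hydrogen peroxide. The list named 8 genes, and 7 of them (Hs3st1, Srgn, Sdc1, Sdc4, Gpc3, Gpc4 and Ext1) had a probe set carrying a single gene symbol in the MG_U74Av2 platform annotation. Ndst1 had none and was left out. Sdc1 was read by 2 probe sets, so the 7 genes, of 8251 on the array, were followed by 8 probe sets of the 12422 that are not array controls. The genes were chosen with knowledge from earlier results of these data, in which Hs3st1 and Srgn showed some of the largest falls after the high dose; their ranks, 5th and 11th lowest of 8695 probe sets against the controls, describe that choice. For that reason the comparison of the high dose with the controls is given for these genes as a description with no test. The same holds for Hs3st1 and Srgn between the doses.

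All cells were the C2 clone, a single derivative of the mouse embryonic stem cell line E14tg2a that carries targeted recognition sites for the endonuclease I-SceI. Control cells were held in phosphate-buffered saline (PBS) without peroxide (n = 3). Low-dose cells received 100 µM H2O2 in PBS for 15 min (n = 4) and high-dose cells 5 mM for 30 min (n = 5), so concentration and time differ together. Treated cells recovered in maintenance medium for 1 h before RNA was taken. The control samples' own description names PBS alone, so where they had no such recovery, peroxide and the return to medium cannot be told apart. The labels do not say whether replicates were separate cultures, so the p-values reflect sample-to-sample spread alone, possibly technical.

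Heparan sulfate is a sulfated sugar chain that grows on core proteins in the Golgi. Ext1 and Ext2 polymerize it, sulfotransferases such as Ndst1 and Hs3st1 decorate it, and the finished chains bind growth factors. Syndecans cross the plasma membrane, whereas glypicans are tethered to it by a lipid anchor. Serglycin, the product of Srgn, is a proteoglycan of secretory granules. In mouse embryonic stem cells the chains are known to assist FGF4 signalling, which moves the cells out of self-renewal.

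For the 4 genes on which the results turn most, the 250 bases before an annotated transcript start are shown, so that the promoters of genes with different dose patterns can be compared (RefSeq, GRCm38.p6, 5′ to 3′). Of the 7 genes, 6 had such a window. Ext1 did not, and Srgn had 2. Capitals mark matches on either strand to GATAA (the core bound by GATA factors), TATAAA (the TATA box), GGGCGG (the GC box), TGANTCA (the AP-1 site), TGACNNNGC (the antioxidant response core) or the NF-kB motif. The AP-1 and antioxidant patterns can overlap each other.
Hs3st1 (chr5:39644632-39644881, minus strand): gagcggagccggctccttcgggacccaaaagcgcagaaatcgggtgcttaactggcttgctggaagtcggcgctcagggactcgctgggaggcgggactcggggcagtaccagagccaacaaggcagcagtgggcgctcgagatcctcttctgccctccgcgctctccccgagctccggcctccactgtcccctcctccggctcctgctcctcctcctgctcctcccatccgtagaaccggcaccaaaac
Srgn (chr10:62527446-62527695, minus strand): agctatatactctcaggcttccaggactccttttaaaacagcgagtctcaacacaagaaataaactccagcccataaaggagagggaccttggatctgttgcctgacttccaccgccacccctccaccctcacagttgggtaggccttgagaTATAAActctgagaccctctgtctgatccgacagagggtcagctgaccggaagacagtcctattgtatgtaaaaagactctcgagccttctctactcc
Sdc4 (chr2:164443189-164443438, minus strand): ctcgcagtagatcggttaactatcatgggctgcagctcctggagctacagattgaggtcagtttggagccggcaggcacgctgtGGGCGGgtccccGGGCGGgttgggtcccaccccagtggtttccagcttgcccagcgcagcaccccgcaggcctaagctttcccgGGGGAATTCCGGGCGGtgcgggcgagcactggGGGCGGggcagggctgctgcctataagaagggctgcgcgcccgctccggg
Gpc3 (chrX:52613975-52614224, minus strand): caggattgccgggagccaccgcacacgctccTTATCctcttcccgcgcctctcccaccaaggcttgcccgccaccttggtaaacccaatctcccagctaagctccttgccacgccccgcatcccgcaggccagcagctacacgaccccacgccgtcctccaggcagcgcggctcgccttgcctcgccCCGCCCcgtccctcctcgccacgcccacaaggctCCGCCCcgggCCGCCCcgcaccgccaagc

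The Hs3st1 window held no match to any of the 6 patterns. The Srgn window held 1 TATAAA, ending 93 bases before the start, and its other start held no match to any pattern. Sdc4 had 4 GC boxes and 1 NF-kB match ending 73 bases before the start. Gpc3 had 3 GC boxes and 1 GATAA match ending 215 bases before the start. Among 32851 windows of this length in the table, 32.7% held a GC box, 22.6% GATAA, 12.4% TATAAA, 10.2% the antioxidant core, 7.25% the NF-kB motif and 6.75% the AP-1 site. A match describes the letters only and says nothing of binding.

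The deposited values are MAS5 signals, 1 per probe set and array. Array medians ran from 56.1 to 77.6. The brightest probe set reached 7206 to 8904 on the control arrays, 14976 to 24225 after 100 µM and 19733 to 34685 after 5 mM. The highest signal of the genes described here was 1806, below the brightest probe set of every array. Differences are log2 differences of the signal plus an offset of 10.1, and a probe set passed where limma's adjusted p was under 0.05 over 8695 tested probe sets. The level of a probe set depends on its oligonucleotides, so levels are compared between groups and not between genes.

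The genes did not move as a group. Hs3st1 and Srgn were at a fraction of their control signal on every high-dose array and did not pass at the low dose. Gpc3 and Ext1 fell at the low dose while Sdc4 rose, and for Gpc3 the high dose lay back near the controls. Sdc1 and Gpc4 passed in neither of the comparisons in which they were tested. Low dose against control, 3 of the 8 probe sets passed, beside 24.0% of all tested probe sets. In the same comparison Sdc4 lay above every control array and Gpc3 and Ext1 below, as did 18.4% and 13.5% of all probe sets. Scaling the arrays to a common median moved the median difference of all probe sets there from 0.08 to -0.09, and Sdc4, Gpc3 and Ext1 kept their direction and their call under it and under quantile normalization. High dose against low dose, 1 of the 6 tested probe sets passed, beside 27.4% of all. High dose against control, 4 of the 8 lay below every control array and 1 above, where 10.4% and 9.61% of all probe sets did so. Hs3st1 and Srgn, known for their falls in this comparison when chosen, were among those 4, so the count was partly fixed in advance. In that comparison 11.7% of all passed the test, and nothing is read from it for these genes.

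**Figure D1:**
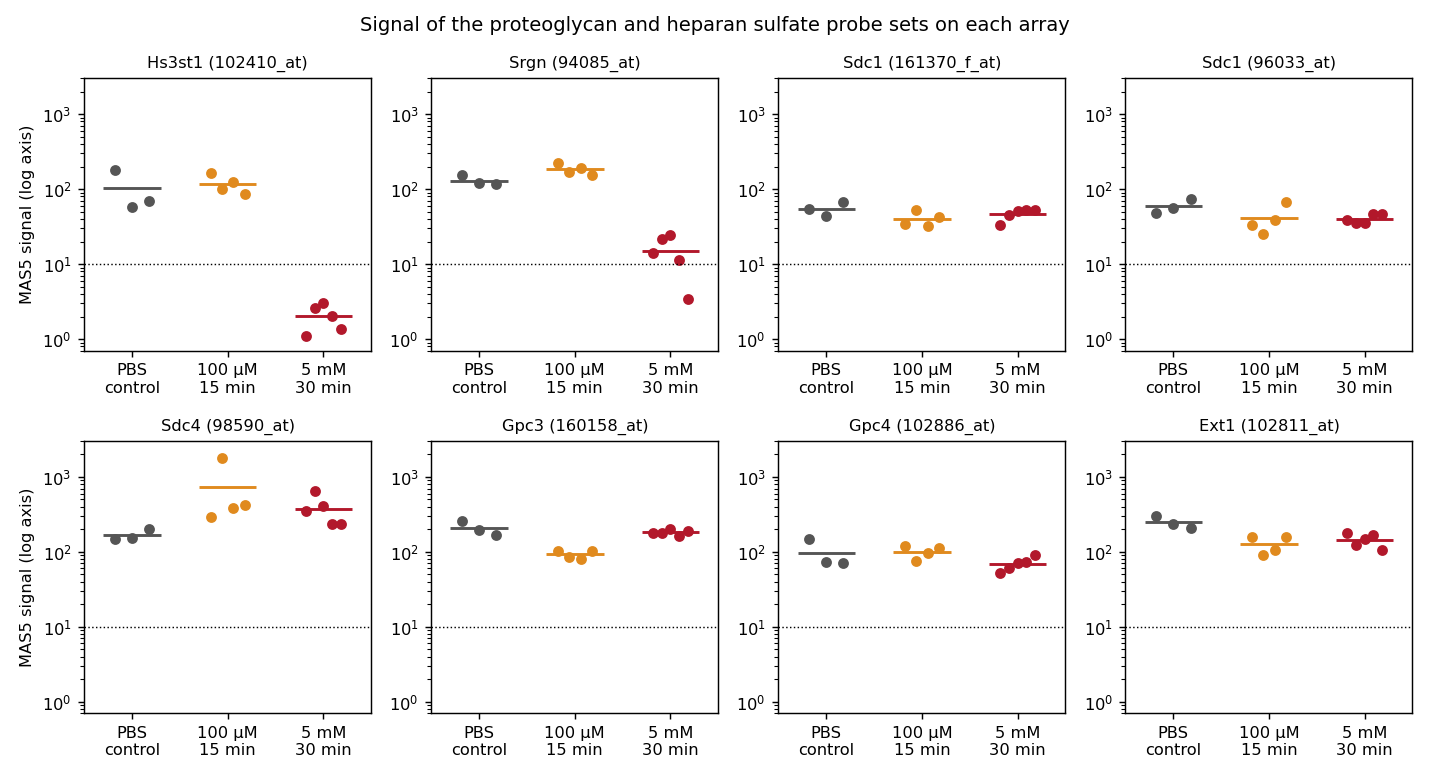
MAS5 signal (log axis) of each probe set on each array, by group; points are arrays, short lines are group means and the dotted line is the offset of 10.1. All 5 high-dose arrays of Hs3st1 sit below the offset, and the 4 low-dose arrays of Gpc3 sit below all arrays of the other groups.

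Hs3st1 (probe set 102410_at) encodes the sulfotransferase that adds the 3-O-sulfate group by which heparan sulfate binds antithrombin. Its control arrays read 182, 58.1 and 70.4. The low-dose arrays read 162, 101, 124 and 85.9, and the high-dose arrays 1.10, 2.60, 3.06, 2.06 and 1.35. The control and low-dose arrays overlapped, while every high-dose array was below all others and below the offset. The mean went from 103 ± 68.0 (SD, n = 3) in the controls to 118 ± 33.2 (n = 4) after 100 µM and 2.04 ± 0.822 (n = 5) after 5 mM. The high dose differed from the controls by a log2 value of -3.07 ± 0.31 (SE) and from the low dose by -3.38 ± 0.29. As the high-dose signal ended below the offset, these sizes depend on it: with 4 times the offset they were -1.67 and -1.89. Without control replicate 1, the array at 182, the value against the controls was -2.62. The low dose did not pass against the controls, at 0.30 with an interval from -0.39 to 0.99 (limma, 95%), and that value was 0.76 without control replicate 1 (adjusted p = 0.0815).

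Srgn (94085_at), whose product carries heparin or chondroitin sulfate chains and is best known from blood cells, read 156, 119.9 and 116 in the controls. It read 222, 169, 192 and 154 after 100 µM and 14.1, 21.5, 24.4, 11.4 and 3.47 after 5 mM. The low-dose arrays reached above the controls but the lowest of them lay just under the highest control array, and all high-dose arrays were far below both groups. The means were 130.5 ± 21.99 (SD, n = 3), 184 ± 29.7 (n = 4) and 15.0 ± 8.31 (n = 5). The high dose stood at -2.55 ± 0.27 (SE) against the controls and -3.02 ± 0.25 against the low dose on the log2 scale. Those values were -1.63 and -2.03 with 4 times the offset. The low dose did not pass against the controls, at 0.47 with an interval from -0.13 to 1.07 (limma adjusted p = 0.254).

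**Figure D2:**
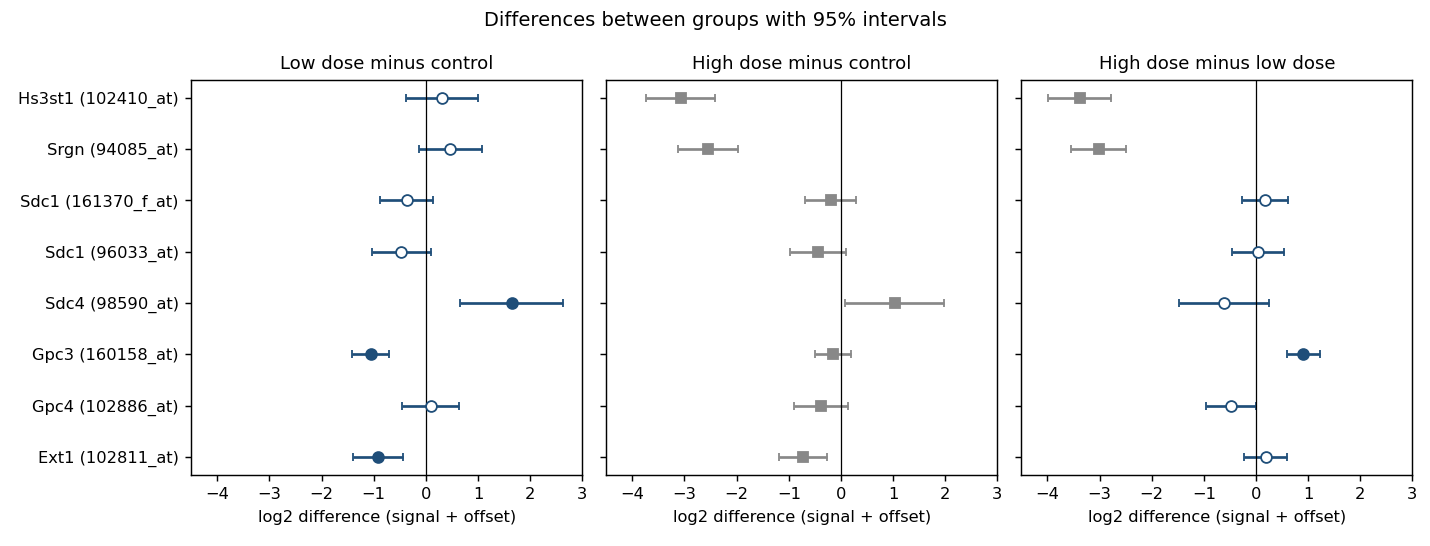
Log2 differences (signal + offset) of the 8 probe sets for the 3 comparisons, with 95% intervals; filled circles passed the test, open circles did not, and grey squares were not tested. Gpc3 is the probe set that passed both against the controls at the low dose (-1.06) and between the doses (0.91).

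A list of primitive endoderm markers (an extraembryonic lineage that arises beside pluripotent cells) had its lowest sum at the high dose, where Hs3st1 and Srgn were lowest too. The summed signal of the 22 markers on the array was 7076 to 10113 in the controls, 10191 to 10948 after 100 µM and 1790 to 2008 after 5 mM. Control replicate 1, the control array highest for Hs3st1, Srgn, Gpc3, Gpc4 and Ext1, also held the highest of the control sums. The treated groups did not repeat this order. Low-dose replicate 4 held the highest low-dose sum (10948) but the lowest low-dose Hs3st1 and Srgn (85.9 and 154). High-dose replicate 3 held the lowest high-dose sum (1790) but the highest high-dose Hs3st1 and Srgn (3.06 and 24.4). The other lists differed in where control replicate 1 stood. It held the highest control sum of the fibroblast markers (1807) and the lowest of the blood and immune cell markers (1158). Its sum of the embryonic stem cell markers (30535) lay between those of the other control arrays. Of 18 tested markers, 13 fell and 5 did not pass at the high dose against the controls, beside 12.2% of all genes called. Between the doses 14 fell, beside 29.0%, and at the low dose against the controls 6 rose and 12 did not pass, beside 24.6%. The list was chosen with earlier results of these data known, so these counts are a description and not independent evidence. Among the brightest of the list, the basement membrane collagens Col4a1 and Col4a2 averaged 1877 and 1031 in the controls and 147 and 98.0 at the high dose, and the laminin chain Lama1 averaged 1634 and 317. Thbd, Hnf4a, Apoa1 and Apob averaged 7.55 to 13.2 over all arrays, at or near the offset. Gata4 averaged 209 in the controls and 194 at the high dose, and Lamc1 478 and 485. Their part in the values of Hs3st1 and Srgn was not tested. In bulk RNA, fewer cells of a type and less RNA per cell cannot be told apart.

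**Figure D3:**
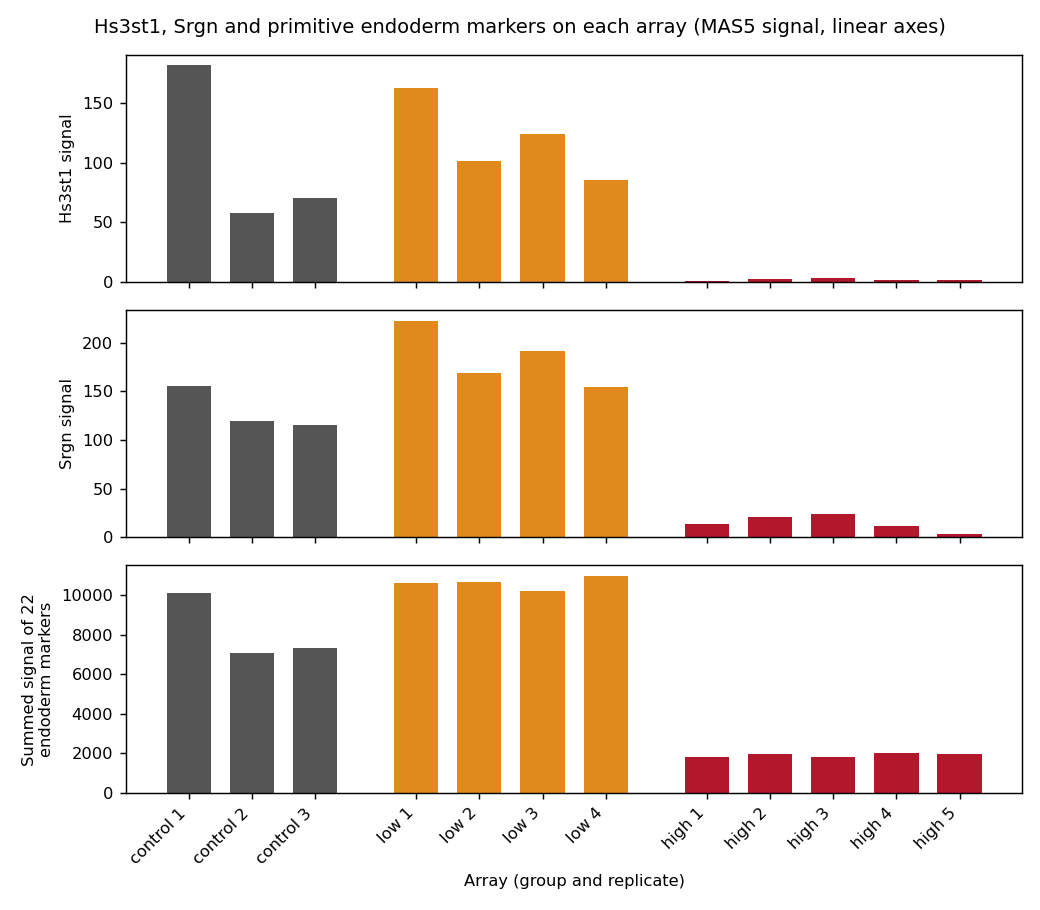
Signal of Hs3st1, Srgn and the sum of 22 primitive endoderm markers on each array (linear axes from 0); bars are single arrays, coloured by group. All 3 are lowest on the 5 high-dose arrays, and control replicate 1 is the highest control array in each panel. Within the treated groups the order differs: low-dose replicate 4 has the highest low-dose sum but the lowest low-dose Hs3st1 and Srgn. High-dose replicate 3 has the lowest sum but the highest Hs3st1 and Srgn of its group.

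The lists for other cell types gave different values. The sum of 17 fibroblast (feeder) markers was 1550 to 1807 in the controls and 1579 to 2050 at the high dose, with 1941 to 2293 at the low dose. Its brightest members, Fn1, Col1a2 and Col5a1, averaged 708, 471 and 199 over all arrays, while Postn, Lox and Fap were below the offset on most arrays. Of its 10 tested members, 2 rose and 1 fell at the low dose against the controls, beside 24.6% of all genes called. Between the doses 1 rose and 3 fell, beside 29.0%. None passed in limma between high dose and controls, where 12.2% of all genes did and 3 members had an unadjusted p under 0.05. The sum of 17 blood and immune cell markers, which bear on Srgn, was 1158 to 1326 in the controls, 1237 to 1305 after 100 µM and 1081 to 1291 after 5 mM. Its brightest members, Cd68, Kit and Cd14, averaged 378, 305 and 123 over all arrays, and Ptprc, Itgam and Lyz2 averaged 7.75, 5.21 and 3.70, below the offset. Of the 11 tested members, 1 rose and 1 fell at the low dose against the controls and 1 fell between the doses, beside the same shares of all genes. None passed in limma between high dose and controls, beside 12.2% of all genes, and 2 had an unadjusted p under 0.05. The 13 embryonic stem cell markers summed to 29583 to 32893 in the controls, 35628 to 41692 after 100 µM and 33727 to 38703 after 5 mM. The brightest probe set of the control arrays read 7206 to 8904, and Dppa5a averaged 6071 there. Whether the top of that scale held down the control sum was not tested. Dppa5a averaged 8506 over all arrays, and Pou5f1 and Nanog, which mark pluripotent cells, read at least 3284 on every array. Of the 13 tested members, 5 rose and 2 fell at the low dose against the controls, beside 24.6% of all genes called. Between the doses 2 rose and 4 fell, beside 29.0%. At the high dose against the controls 2 rose and 1 fell, beside 12.2%.

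Ext1 (102811_at) encodes a subunit of the polymerase that elongates heparan sulfate. It read 299, 235 and 205 in the controls, 159, 91.1, 106 and 156 after 100 µM and 181, 123, 148, 170.2 and 106 after 5 mM. Every treated array was below every control array, and the treated groups overlapped. Against the controls (247 ± 48.2, SD, n = 3) Ext1 fell at the low dose (128 ± 34.6, n = 4), by 0.91 ± 0.23 (SE) on the log2 scale or 1.88-fold (limma adjusted p = 0.00886). The call held in all 22 alternatives, with limma adjusted p from 0.0032 to 0.0402. The high dose (146 ± 31.4, n = 5) stood at -0.73 ± 0.22 against the controls. Between the doses Ext1 did not pass, at 0.18 with an interval from -0.24 to 0.60.

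Gpc3 (160158_at) encodes a glypican that is known to modulate Wnt and Hedgehog signals and whose loss causes overgrowth. Its signal was 256, 194 and 170.2 in the controls, 103, 84.4, 80.2 and 104 after 100 µM and 179, 181, 201, 164 and 187 after 5 mM. The low-dose arrays lay below all others, and the control and high-dose arrays overlapped. Gpc3 fell at the low dose from 207 ± 44.1 (SD, n = 3) to 93.0 ± 12.5 (n = 4), by 1.06 ± 0.17 (SE) on the log2 scale or 2.09-fold (limma adjusted p = 0.000457). At the high dose it read 182 ± 13.1 (n = 5), a rise of 0.91 ± 0.15 or 1.87-fold over the low dose (limma adjusted p = 0.000305). Both calls held in all 22 alternatives. Against the controls the high-dose value was -0.16, with an interval from -0.50 to 0.19. The comparisons share arrays, the low-dose arrays being in both of the tested ones.

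Gpc4 (102886_at), a glypican of the same family, read 150.1, 72.9 and 70.9 in the controls. It read 119.7, 74.4, 96.9 and 111 after 100 µM and 52.6, 60.1, 71.9, 72.5 and 90.1 after 5 mM. Control replicate 1 stood above all other arrays, and the 3 groups overlapped. The means were 98.0 ± 45.2 (SD, n = 3), 100.5 ± 19.7 (n = 4) and 69.4 ± 14.3 (n = 5). Gpc4 did not pass at the low dose against the controls, at 0.09 with an interval from -0.45 to 0.64, and the value was -0.04 and -0.08 under the other scalings. Between the doses it did not pass either, at -0.48 with an interval from -0.95 to 0.0027. The high dose stood at -0.38 ± 0.25 (SE) against the controls, a value that was -0.06 without control replicate 1 and -0.55 without control replicate 3.

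Sdc4 (98590_at) encodes the syndecan of focal adhesions, where it acts beside integrins. It read 147, 155 and 203 in the controls, 292, 1806, 380 and 428 after 100 µM, and 350.2, 656, 414, 236 and 233 after 5 mM. Every treated array was above every control array, and 1 low-dose array, replicate 2, stood far above the next of its group. The mean rose from 168 ± 30.1 (SD, n = 3) to 726 ± 722 (n = 4) at the low dose, a log2 difference of 1.64 ± 0.47 (SE) or 3.12-fold (limma adjusted p = 0.0182). Without low-dose replicate 2 the difference was 1.07 and still passed (adjusted p = 0.0232). It did not pass without control replicate 1 (1.56, adjusted p = 0.0530) or control replicate 2 (1.59, adjusted p = 0.0565). The high dose (378 ± 174, n = 5) stood at 1.03 ± 0.45 against the controls. Between the doses Sdc4 did not pass, at -0.62 with an interval from -1.48 to 0.25, a value that shrank to -0.05 without low-dose replicate 2.

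Sdc1 encodes the syndecan best known from epithelia and plasma cells. Its first probe set, 161370_f_at, whose suffix marks oligonucleotides shared within a sequence family, ranged from 43.8 to 68.0 in the controls, 31.8 to 53.2 after 100 µM and 32.8 to 53.5 after 5 mM. The other, 96033_at, ranged from 47.5 to 72.9, from 25.3 to 66.8 and from 35.1 to 46.7. On 96033_at every high-dose array was below every control array, while on 161370_f_at the groups overlapped. Neither passed at the low dose against the controls, at -0.37 (interval -0.88 to 0.14) and -0.47 (interval -1.04 to 0.09). Between the doses the values were 0.17 (interval -0.27 to 0.62) and 0.04 (interval -0.46 to 0.54), and neither passed. The high dose stood at -0.19 ± 0.23 (SE) and -0.44 ± 0.26 against the controls.

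For each gene that differed by at least 1 log2 unit between group means, the genes whose pattern over the 12 arrays was nearest were found among 6413 others, as the root mean square difference of centred log2 signals. For Hs3st1 and Srgn this ranking rests on the high-dose values behind their choice. The high-dose signals of Hs3st1 lie below the offset, so its distances and their order depend on that setting, and no other offset was tried for them. Hs3st1 lay nearest to Col4a2 (0.40), Col4a1 (0.41) and Srgn (0.43). Srgn lay nearest to the collagen chaperone Serpinh1 (0.42), Hs3st1 (0.43) and the endoderm transcription factor Sox17 (0.44). Col4a1, Col4a2 and Sox17 are also on the endoderm marker list. Sdc4 lay nearest to the transcription factor gene Foxo3 (0.35), Nipsnap2 (0.40) and Zfp276 (0.50). Foxo3 read 1726 on low-dose replicate 2 and 293 to 519 on the other low-dose arrays, and Nipsnap2 read 2724 there; a ranking over all arrays favours genes that share such an array. High-dose replicate 2 was the highest of its group for Sdc4 (656), Foxo3 (788) and Nipsnap2 (1868). Gpc3 lay nearest to the mitochondrial ribosome component Mrpl58 (0.12), the pyrophosphatase Ppa1 (0.13) and the proteasome subunit Psmd4 (0.15). The distances are not scaled to the size of a gene's own differences, so they are not compared between genes. Mrpl58 averaged 362 in the controls, 179 after 100 µM and 331 after 5 mM.

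The wider pathway was read through lists of 129 other genes, of which 80 were on the array and 50 were tested, each by its brightest tested probe set. Low dose against control, 5 rose, 3 fell and 42 did not pass (16%, beside 24.6% of 6414 genes), with a median difference of 0.09 beside 0.04 for all genes. High dose against control, 3 rose, 3 fell and 44 did not pass (12%, beside 12.2%), with medians of -0.06 and -0.01. Between the doses, 5 rose, 8 fell and 37 did not pass (26%, beside 29.0%), with medians of -0.07 and -0.04. The comparisons share arrays.

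**Figure D4:**
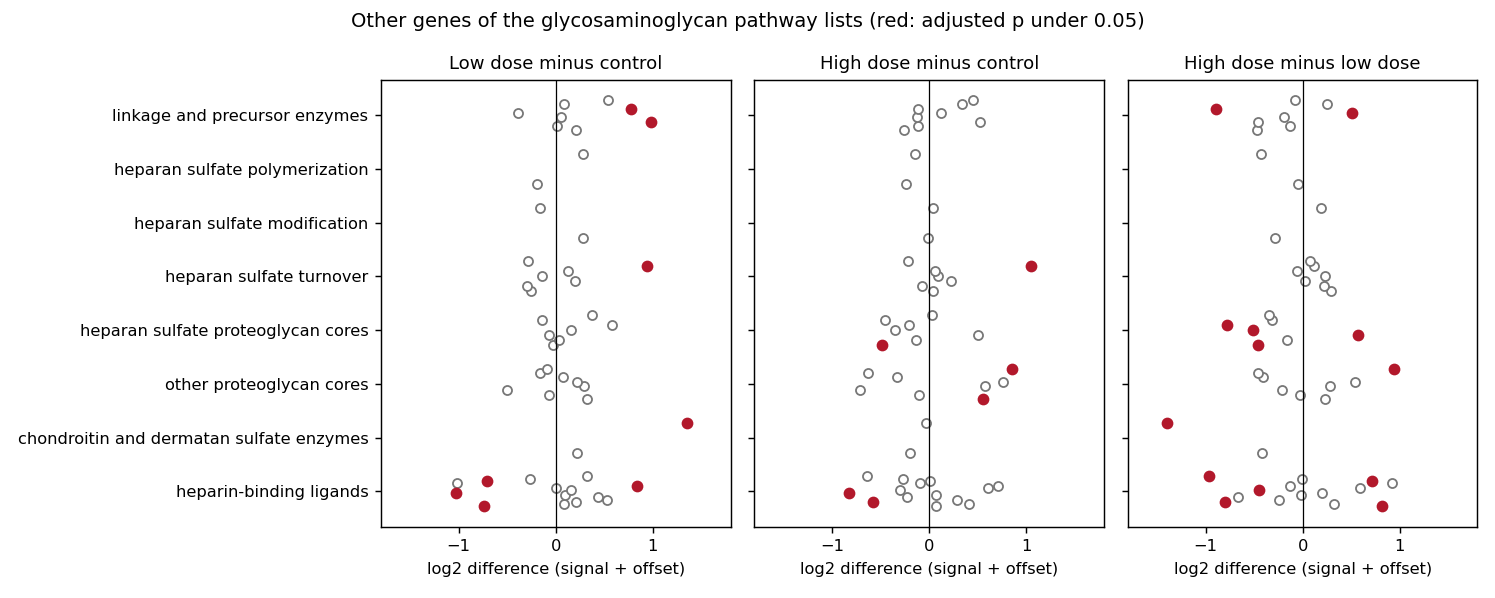
Log2 differences (signal + offset) of the 50 tested pathway genes by list, for the 3 comparisons; each point is a gene, filled red where limma's adjusted p was under 0.05 and open otherwise. Most points are open, and the points farthest from 0 are Chst3 at 1.35 (low dose against control) and -1.39 (between the doses).

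Among the 8 tested genes for linkage and precursor supply, 2 rose and 6 did not pass at the low dose against the controls (25%, beside 24.6% of all genes). Bpnt2, a Golgi phosphatase that clears the by-product of sulfation, rose from 439 ± 22.1 (SD, n = 3) to 899 ± 247 (n = 4), by 0.98 (limma adjusted p = 0.00249). Its dimmer probe set rose by 0.59 (adjusted p = 0.0113), but the probe sets differed in sign at the high dose against the controls, 0.52 and -0.30, neither passing. The brighter one did pass there without high-dose replicate 3 (0.65, adjusted p = 0.0264). Between the doses the dimmer probe set fell by 0.89 (adjusted p = 0.000134), while the brighter one, at -0.46, did not pass (adjusted p = 0.0609). Slc35d1, a nucleotide sugar transporter, rose from 111 ± 17.5 to 199 ± 40.5 after 100 µM (0.78, adjusted p = 0.0132) and fell to 102 ± 20.7 (n = 5) after 5 mM (-0.89 between the doses, adjusted p = 0.00172). The low-dose call was lost without control replicate 3 (adjusted p = 0.0594) and when arrays were scaled to a common median (0.0627). Slc35b2, which carries the sulfate donor into the Golgi, rose between the doses by 0.51 (adjusted p = 0.0479), a call lost in 7 of 12 fits that left out an array and in 4 of 10 other alternatives.

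The 4 tested enzymes nearest to Ext1 and Hs3st1 in function did not pass in any of the 3 comparisons with the settings used throughout. Ext2, the partner of Ext1, stood at -0.20 after 100 µM and -0.24 after 5 mM against the controls, with intervals from -0.62 to 0.23 and from -0.65 to 0.16. Extl3, which starts the chain, stood at 0.28 and -0.15, and at -0.43 between the doses (limma adjusted p = 0.0831). Between the doses Extl3 did pass with array quality weights (-0.48, adjusted p = 0.0416) and without high-dose replicate 2 (-0.56, adjusted p = 0.0135). The epimerase Glce stood at 0.28 and -0.01, and the sulfotransferase Hs2st1 at -0.16 and 0.04, the last turning negative under both other scalings. Of 7 tested turnover genes, Sulf2, which removes sulfate from chains outside the cell, rose at the low dose (0.94, adjusted p = 0.0451) and the high dose (1.05, adjusted p = 0.0374) against the controls. Its control mean of 11.6 ± 7.37 was close to the offset, and the calls were lost in 9 and 5 of 12 fits that left out an array. They were also lost in 8 and 2 of 9 other alternatives, quantile normalization (adjusted p = 0.106 and 0.0626) among them, and the low-dose call with a common median (0.0720). Gusb, the largest difference of this list between the doses, stood at 0.29 (adjusted p = 0.250).

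Of 7 other heparan sulfate cores, 1 rose and 3 fell between the doses (57.1%, beside 29.0% of all genes). Gpc1 rose by 0.57 (limma adjusted p = 0.0315), while Sdc2 fell by 0.78 (adjusted p = 0.0447), Hspg2 (perlecan, of basement membranes) fell by 0.51 (adjusted p = 0.0212) and Agrn (agrin) by 0.46 (adjusted p = 0.0132). The calls of Gpc1 and Sdc2 were lost in 7 and 9 of 12 fits that left out an array. That of Sdc2 was also lost in 3 of 9 other alternatives, a common median among them (adjusted p = 0.0526). That of Hspg2 was lost without low-dose replicate 4 (adjusted p = 0.0763) and with a common median (0.0761), and that of Agrn with a common median (0.0603). Agrn also fell at the high dose against the controls, from 591 ± 94.1 (SD, n = 3) to 418 ± 50.5 (n = 5), by 0.49 (adjusted p = 0.0335), lost in 5 of 12 fits that left out an array and with quantile normalization (0.0576) or no variance trend (0.0625); its dimmer probe set did not pass. None of the 7 passed in limma at the low dose against the controls, and 0 had an unadjusted p under 0.05.

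Among other cores and chondroitin sulfate enzymes, Vcan (versican) rose at the high dose, from 86.5 ± 30.5 (SD, n = 3) in PBS and 79.3 ± 20.2 (n = 4) after 100 µM to 158 ± 8.86 (n = 5). The differences were 0.85 (limma adjusted p = 0.0182) and 0.94 (adjusted p = 0.00211), and the first was lost without control replicate 2 (0.0598) or 3 (0.109). Aplp2, an amyloid precursor-like protein, rose by 0.55 at the high dose against the controls (adjusted p = 0.00710), a call lost with a common median (0.47, adjusted p = 0.0603). Cd74, the largest difference of the other cores at the low dose, stood at -0.50 (adjusted p = 0.264), and Chpf at -0.20 at the high dose against the controls (adjusted p = 0.562). Cd74 did pass with array quality weights (-0.78, adjusted p = 0.0381) and without control replicate 1 (-0.88, adjusted p = 0.0418). Chst3, a chondroitin sulfotransferase, rose from 25.2 ± 14.9 to 78.8 ± 29.8 after 100 µM (1.35, adjusted p = 0.0131) and stood at 24.5 ± 15.2 after 5 mM (-1.39 between the doses, adjusted p = 0.00370). Its low-dose call was lost without control replicate 2 (0.0595) or 3 (0.0564).

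Heparin-binding ligands, the factors that heparan sulfate holds and presents, had 14 tested members. At the low dose against the controls 1 rose and 3 fell (28.6%, beside 24.6% of all genes), between the doses 2 rose and 3 fell (35.7%, beside 29.0%), and at the high dose against the controls 2 fell (14.3%, beside 12.2%). The growth factor midkine (Mdk) fell from 1599 ± 330 (SD, n = 3) to 774 ± 83.3 (n = 4), by 1.02 (limma adjusted p = 0.000205), and to 887 ± 81.4 (n = 5) at the high dose, by 0.83 (adjusted p = 0.00122). Bmp4 fell at the low dose by 0.74 (adjusted p = 0.00121) and was higher by 0.81 at the high dose than at the low dose (adjusted p = 0.000101), and its other probe set passed in the same directions. Shh rose by 0.84 at the low dose (adjusted p = 0.0467), a call lost in 9 of 12 fits that left out an array and in 6 of 9 other alternatives, both other scalings (0.121 and 0.0857) among them. Fgf4, also on the stem cell marker list, fell from 2592 ± 184 in the controls to 1724 ± 62.2 at the high dose, by 0.58 (adjusted p = 0.00407), and stood 0.80 below the low dose (adjusted p = 4.6e-05 between the doses). Wnt3a fell between the doses by 0.97 (adjusted p = 0.0117), from 42.1 ± 8.56 to 17.3 ± 8.43, near the offset. Its call held in the 21 alternatives run, but the size of the difference ran from -1.37 to -0.52 over them. Vegfa, named after its values were seen, fell by 0.71 at the low dose (adjusted p = 0.0341) and rose by 0.72 between the doses (adjusted p = 0.0138). Its low-dose call was lost in 5 of 12 fits that left out an array and in 3 of 10 other alternatives. Pdgfa, named in the same way as the Agrn value between the doses, fell between the doses by 0.45 (adjusted p = 0.00498).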

How the data were processed

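Per the labels, RNA of 12 samples of mouse embryonic stem cells was hybridised to MG_U74Av2 arrays, 1 array per sample. The authors deposited 1 intensity per probe set and array, computed with MAS5 per the submitters' processing notes. The trimmed means (2% cut at each end) of the arrays agreed to 0.0195%, so the deposited scaling was kept. The platform annotation gave 10833 probe sets a single gene symbol, 396 several and 1193 none, and 10817 were matched to RefSeq (GRCm38.p6) by gene ID. After 66 array controls were left out, log2(intensity + 10.1), the offset being the 20th percentile of all values, was fitted in limma 3.58.1 (R 4.3.3) with a mean per group over all 12 arrays and eBayes with a trend. Of 12422 probe sets, 8695 with a mean log2 value above the 30th percentile were tested, with Benjamini-Hochberg adjustment at 0.05. All 8 proteoglycan and heparan sulfate probe sets passed this filter. The number of arrays limits the precision. The fit was tested on simulated data. The genes and lists were chosen with earlier results of these data known. Of each pathway list, up to 3 called genes with the largest differences were named, or the largest where none passed, and of each marker list the 3 brightest and those near 0. Vegfa, Pdgfa and the Agrn value between the doses were named after their values were seen. Alternatives changed the scaling, offset, filter, variance model, samples, replicate block and probe set per gene.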

Additional observations from a re-analysis of the deposited data

Results flagged for a closer look

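Of 66 sets of 4 or 5 arrays checked, 4 held an array far from the others of its group, where chance gives about 1 in 20. Sdc4 read 1806 on low-dose replicate 2 and 292 to 428 on the other 3 low-dose arrays. Bmp4 read 641 on high-dose replicate 2 and 472 to 492 on the others. Chst3 read 51.5 on high-dose replicate 4 and 16.1 to 19.7 on the others. Pdgfa read 646 on low-dose replicate 4 and 530 to 546 on the others.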

How the results depend on the processing

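The calls of Gpc3 and Ext1 held in all 22 alternatives, and that of Sdc4 in all but the fits without control replicate 1 or 2. Of 27 calls named for pathway genes, 12 held in all alternatives run. The pathway count at the low dose against control went from 8 to 5 with a common median, with the filter at the 50th percentile, with only the groups compared and with the replicate block, and ranged from 4 to 8 when single arrays were left out (4 without control replicate 2, and 5 without control replicate 3 or without either replicate 2 or 4 of the low dose). High dose against control, probe sets called went from 1018 to 1655 with array quality weights and 597 with the replicate block, and ranged from 493 (without control replicate 2; 602 without control replicate 3) to 1019 with single arrays left out. The pathway count there went from 6 to 10 with array quality weights, and ranged from 3 (without control replicate 2) to 8. Scaling to a common median moved the median of all differences at the low dose from 0.08 to -0.09 and the share of calls that were higher from 53.2% to 27.6%. That share went from 46.7% to 61.7% between the doses and from 48.5% to 33.3% at the high dose against control.

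Values near 0 changed sign, none of them called. Sdc1 96033_at between the doses was -0.0056 with the replicate block, -0.018 and -0.12 without low-dose replicates 1 and 2, and -0.0050 and -0.0056 without high-dose replicates 4 and 5, within a range from -0.12 to 0.25 over single arrays left out. Gpc4 at the low dose was -0.041 with quantile normalization, -0.085 with a common median, and -0.062 and -0.079 without control replicates 2 and 3, within a range from -0.079 to 0.41. Hs2st1 at the high dose against control was -0.038 with quantile normalization, -0.029 with a common median, -0.054 with array quality weights, -0.064 with the replicate block, -0.11 without control replicate 1, and -0.024 and -0.078 without high-dose replicates 3 and 5, within a range from -0.11 to 0.18. The cause was not tested. The 10 correlations of same-numbered deviations ran from -0.178 to 0.148, beside -0.162 to 0.177 for the 37 of other numbers. Of these, 2 and 5 were above 0.1, so the values do not settle whether replicate numbers pair the arrays. With the number as a block, the calls of Sulf2 (adjusted p = 0.118 at the low dose, 0.149 at the high dose), Hspg2 (0.0756), Vcan against control (0.0655) and Vegfa (0.0953 at the low dose, 0.0595 between the doses) were among those lost. Signals under the offset have no usable order, which limits the size of the Hs3st1 difference, and Hs3st1 and Sdc1 were not tested with the filter at the 50th percentile.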
